A study of Homo sapiens with 6 samples.

Results

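The genes described here are the nuclear genes for respiratory complexes II, III, IV and V and for cytochrome c, with their dedicated assembly factors. They were chosen by name: symbols beginning with SDHA, SDHB, SDHC, SDHD, SDHAF, UQCR, UQCC, COX followed by a digit, or ATP5, together with CYC1 and CYCS. Names ending in P and a digit, which mark pseudogenes, and names with a hyphen were dropped, which left 68 genes of the 58051 in the table. Their expression was compared between wild-type MDA-MB-231 cells that bound FABP4 (3 libraries) and cells of that line that did not (3 libraries). MDA-MB-231 is an established human breast cancer line of mesenchymal-like form, and FABP4 is the fatty acid binding protein abundant in adipocytes. All cells, in either group, had been stained with fluorescein-labelled recombinant human FABP4 and separated by flow cytometry, so the groups differ in the label they carried after staining and neither was left unstained. Total RNA was depleted of ribosomal RNA and read after random priming. Values are TPM, the length-corrected abundance of a gene's transcripts per 1000000 in its library, from which sequencing depth cannot be read. The labels do not say that replicates were grown or sorted separately, and p-values therefore reflect the spread between libraries alone, which may be technical. The libraries are bulk samples, in which more cells of a type and more RNA per cell cannot be told apart.

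The respiratory chain passes electrons from fuels to oxygen across the inner mitochondrial membrane. Complex II (succinate dehydrogenase) takes them from succinate, complex III (the cytochrome bc1 complex) hands them to cytochrome c, and complex IV (cytochrome c oxidase) reduces oxygen. Complex V, the ATP synthase, spends the proton gradient built by the chain on making ATP. Complex II is built from nuclear genes alone, whereas complexes III, IV and V also need subunits encoded by mitochondrial DNA. In cancer cells the chain is also a source of reactive oxygen species, the mitochondrial side of the signaling that the study's title names.

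Most of these genes were expressed at a higher level in the FABP4-binding libraries. Of the 63 tested, 57 had a positive log2 change and 6 a negative one. Of the 68 genes, 63 reached 1 TPM in at least 3 libraries and were tested, none of them only through the level of 1 group. On log2(TPM + 1), tested with limma and Benjamini-Hochberg adjustment over all 15574 tested genes at 0.05, 37 were higher in binding cells, 3 were lower and 23 did not pass. That is 58.7% higher, where 19.6% of all tested genes and 23.4% of the 12050 protein-coding ones were higher. The 3 lower genes, UQCC2, ATP5F1B and ATP5MC3, compare with 7.12% of all tested genes and 4.5% of protein-coding ones. At an unadjusted p under 0.05, 52 of the 63 were higher and 3 lower, and 6963 of 15574 tested genes passed in either direction. In 51 of the 63 every binding library was above every non-binding library, against 38.6% of all tested genes, and in 3 every binding library was below, against 13.6%. The median log2 change of the 63 was 0.73, while the median over all tested genes was itself 0.36 and over protein-coding genes 0.43. Changes are given relative to that of all tested genes for the lower genes and for those whose direction turns on it.

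**Figure D1:**
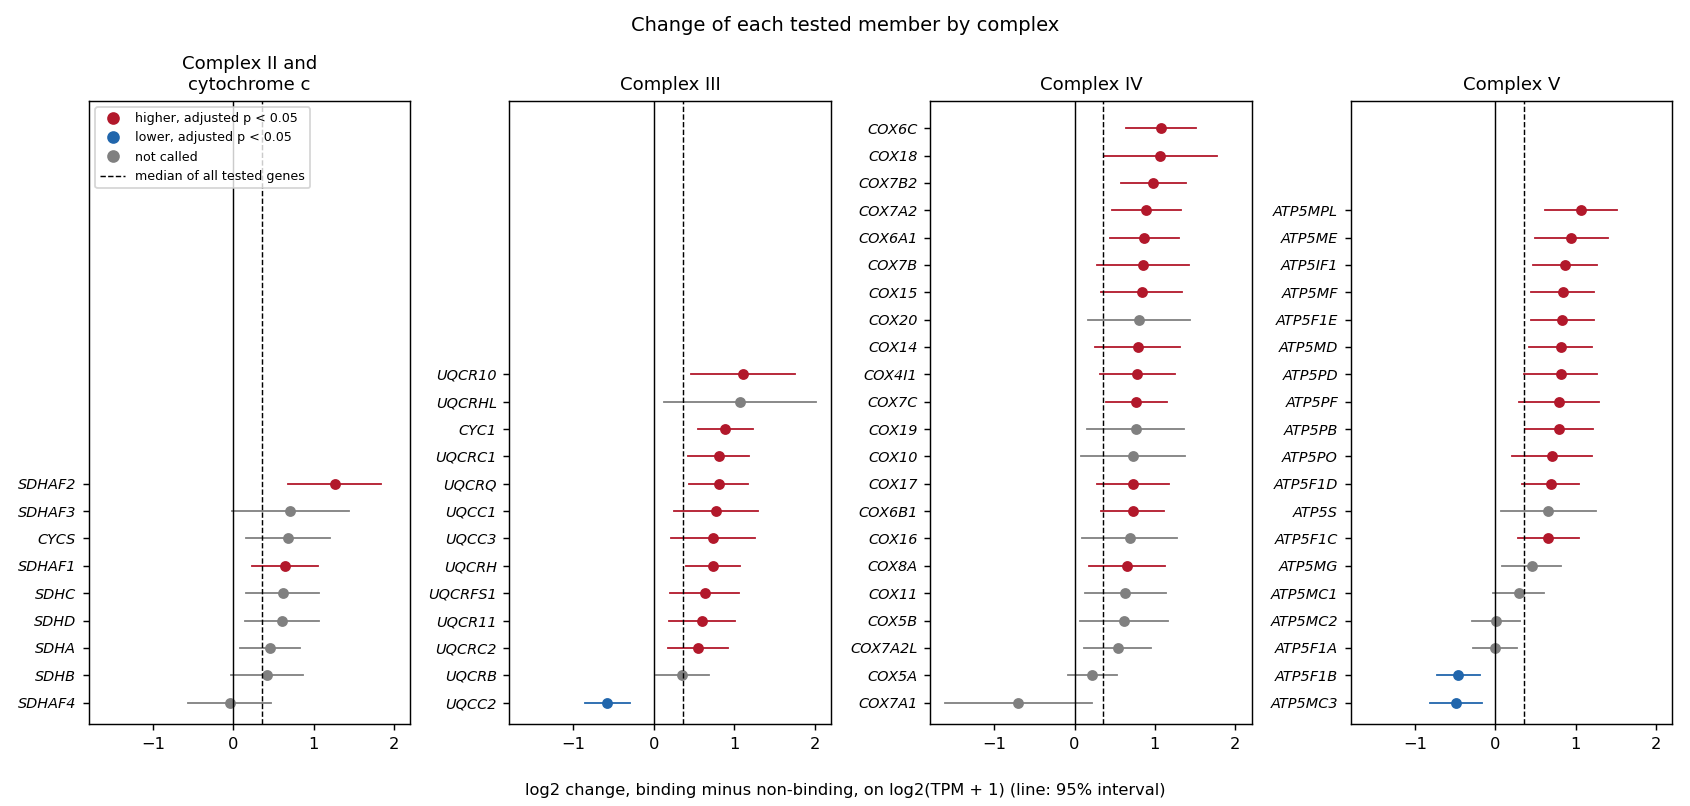
Each point is the log2 change (binding minus non-binding, on log2(TPM + 1)) of 1 of the 63 tested genes, with its 95% interval as a line, in panels by complex. Red marks an adjusted p under 0.05 upward, blue downward, and the dashed line the median of all tested genes at 0.36; 37 points are red and 3, UQCC2, ATP5F1B and ATP5MC3, are blue.

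The calls rest on all 6 libraries. Without non-binding replicate 2, and likewise without non-binding replicate 3, limma called 0 of the 63 genes in either direction, with a smallest adjusted p of 0.0546 and 0.0516, although 41 and 45 of them were then higher and 3 lower at an unadjusted p under 0.05. The median change of the 63 was 0.68 and 0.69 in these fits. Over all tested genes limma then called 280 and 58 higher (1.8% and 0.372%) and 80 and 6 lower. In the same fits 5527 and 5631 of the 15574 tested genes had an unadjusted p under 0.05 in either direction. Without non-binding replicate 1 the counts of the 63 were 22 higher and 0 lower, with 3 lower at an unadjusted p under 0.05. Over all tested genes they were 1427 higher (9.16%) and 511 lower, and 6231 genes had an unadjusted p under 0.05 in either direction. With the libraries brought to 1 common median the test called 16 of the 63 higher and 3 lower, and after quantile normalization 23 and 2. Over all tested genes the common median gave 962 higher (6.18%) and 1890 lower, and quantile normalization 1197 higher (7.69%) and 1246 lower. Binding replicate 1 was the highest of the binding libraries for 58 of the 63 genes and binding replicate 3 the lowest for 41. Without binding replicate 1 the median change was 0.56, and 28 of the 63 were higher and 3 lower. Over all tested genes 1975 were then higher (12.7%) and 888 lower.

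**Figure D2:**
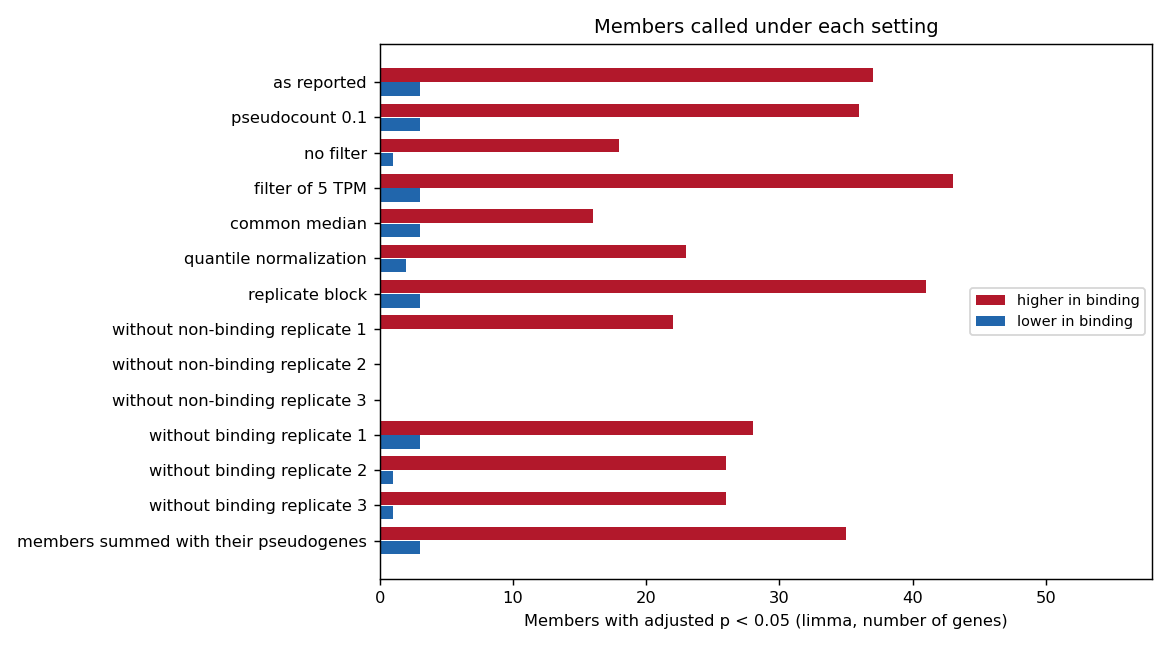
Number of the tested genes called higher (red) and lower (blue) in binding cells by limma at an adjusted p of 0.05, under the reported setting and 13 alternatives. The count of higher genes is 37 as reported, 43 under a filter of 5 TPM, 16 under a common median, and 0 without non-binding replicate 2 or 3. Of all tested genes 19.6% were higher as reported, 32.7% under that filter and 6.18% under the common median. Without non-binding replicate 2 the share was 1.8%, and without non-binding replicate 3 it was 0.372%.

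Other features of the libraries moved with the groups. Transcripts of the mitochondrial genome took 10.5% ± 0.668 (SD, n = 3) of TPM in binding and 3.14% ± 0.208 in non-binding libraries, and pseudogenes took 16.2% ± 3.46 and 26.8% ± 1.69. Of 12 epidermal keratinocyte markers limma called 8 lower and 0 higher in binding cells (10 and 0 at an unadjusted p under 0.05), with a summed level of 1324 to 2456 TPM against 3168 to 4545 TPM. Of 8 markers of MDA-MB-231 itself 5 were higher and 0 lower by limma (1 lower at an unadjusted p under 0.05), and all libraries held them at 3213 to 5487 TPM summed. Further, 3 of 6 tested luminal markers were higher (616 to 716 TPM summed against 322 to 353), with the estrogen receptor gene ESR1 listed at 0 in all libraries. No leukocyte marker of 4 tested and no adipocyte marker of 2 tested was called, also at an unadjusted p under 0.05, and 1 of 6 fibroblast markers was higher and 0 lower by limma (1 and 1 at an unadjusted p under 0.05), with a median log2 change of -0.26. CD3E was at most 0.174 TPM in any library, and ADIPOQ and LEP were listed at 0 in all. The part of these differences in the changes below was not tested.

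Succinate dehydrogenase itself did not pass the test: limma called 0 of its 4 subunits, while 3 had an unadjusted p under 0.05 and every binding library above every non-binding one. SDHA, the flavoprotein that oxidises succinate, stood at 72.9, 57.9 and 54.5 TPM in binding replicates 1 to 3 and at 43.4, 40.1 and 49.9 TPM in non-binding ones (log2 change 0.46, adjusted p = 0.0664 by limma). The iron-sulfur subunit SDHB stood at 86.9, 72.8 and 60.0 against 44.1, 53.7 and 65.6 TPM, and here the groups overlapped (log2 change 0.42, 95% interval -0.03 to 0.87). The membrane anchors SDHC (16.3 ± 2.97 against 10.2 ± 1.42 TPM, SD, n = 3) and SDHD (44.8 ± 11.2 against 28.7 ± 3.64 TPM) did not overlap between groups, with log2 changes of 0.62 and 0.61. Their adjusted p-values, 0.0506 and 0.0557 by limma, lay just above the threshold, and both genes passed under a filter of 5 TPM. Each was not called in 11 of 13 alternatives, with adjusted p-values by limma up to 0.213 for SDHC and 0.22 for SDHD. SDHD shares exonic bases with TIMM8B on the other strand, which stood at 58.6 TPM in binding against 41.4 TPM in non-binding cells, and whether the quantification used strand is unknown.

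The largest log2 change among all 63 genes belonged to an assembly factor of complex II. SDHAF2, which helps insert the flavin cofactor into SDHA, stood at 11.9, 11.7 and 11.3 TPM in binding cells and at 3.85, 3.12 and 6.38 TPM in non-binding cells. The binding libraries were nearly identical and all lay above the non-binding ones, a ratio of 2.62 in mean TPM and a log2 change of 1.26 (SE 0.25, adjusted p = 0.0175 by limma). SDHAF1, a factor for the iron-sulfur subunit, was also higher, at 25.8 ± 1.89 against 16.3 ± 2.94 TPM (log2 change 0.64, adjusted p = 0.0353), but did not pass in 8 of 13 alternatives, with adjusted p-values of 0.206 and 0.215 after the rescalings. SDHAF3 (10.3 ± 3.78 against 5.93 ± 2.38 TPM) and SDHAF4 (9.17 ± 1.37 against 9.57 ± 2.08 TPM) overlapped between the groups. For SDHAF4, which chaperones flavinated SDHA, the 95% interval of the log2 change ran from -0.56 to 0.47.

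Cytochrome c, the soluble carrier between complexes III and IV and a trigger of apoptosis once released, is encoded by CYCS. It stood at 187, 117 and 99.8 TPM in binding libraries and at 85.2, 72.3 and 85.2 TPM in non-binding ones. All binding libraries were above all non-binding ones, with replicate 1 far above the other two, and the log2 change of 0.68 (SE 0.23) had an adjusted p of 0.0567 by limma.

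In complex III 10 of 13 genes were higher and 1 lower, where 19.6% of all tested genes were higher and 7.12% lower. Here 8 of 10 subunits and 2 of 3 assembly factors rose. CYC1, the cytochrome c1 that passes electrons to cytochrome c, had the smallest p of all the members. It stood at 373, 292 and 267 TPM in binding cells and at 171, 159 and 168 TPM in non-binding cells, with a wide gap between the groups (log2 change 0.89, SE 0.15, adjusted p = 0.0136 by limma). UQCRQ, a small subunit next to cytochrome b, stood at 230, 163 and 164 against 106, 106 and 101 TPM (log2 change 0.80, adjusted p = 0.0177). UQCRH, the acidic hinge protein near cytochrome c1, stood at 359, 283 and 268 against 171, 177 and 196 TPM (log2 change 0.73, adjusted p = 0.018). In all of these the non-binding libraries lay close together and binding replicate 1 stood above the other two.

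The remaining subunits of complex III moved by different amounts. UQCR10, a small subunit, had the largest ratio of the called ones, 2.25 (107 ± 40.3 against 47.4 ± 10.3 TPM), but its libraries spread widely. It lost its call in 7 of 13 alternatives: when each of 5 libraries was left out, under the common median and with no filter. Adjusted p-values by limma reached 0.0871. The core proteins UQCRC1 and UQCRC2 had log2 changes of 0.81 and 0.55, UQCR11 one of 0.60, and the Rieske iron-sulfur protein UQCRFS1 one of 0.63, all called. UQCRC2, UQCR11 and UQCRFS1 lost the call under the common median and after quantile normalization, among other settings. UQCRFS1 was not called in 11 of 13 alternatives, with adjusted p-values up to 0.223 in the sum with its pseudogenes. UQCRB, a ubiquinone-binding subunit, did not pass at 39.4 ± 3.64 against 30.5 ± 1.57 TPM (log2 change 0.36, adjusted p = 0.0902), which is no further than the median gene moved. UQCRHL, a near copy of UQCRH, was low at 6.58 ± 2.62 against 2.78 ± 1.91 TPM with overlapping groups, and reads of UQCRH and UQCRHL may not have been separable.

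The assembly factors of complex III moved in opposite directions. UQCC1, UQCC2 and UQCC3 act together in stabilising newly made cytochrome b before it enters the complex. UQCC1 rose (35.9 ± 11.0 against 20.2 ± 2.77 TPM, log2 change 0.77, adjusted p = 0.0413) and so did UQCC3 (32.6 ± 10.6 against 18.7 ± 1.73 TPM, log2 change 0.73, adjusted p = 0.0468), though they lost the call in 8 and 10 of 13 alternatives, the common median and quantile normalization among them. UQCC2, at chromosome 6 from 33694293 to 33711727 of hg38 on the minus strand, stood at 57.1, 61.6 and 61.6 TPM in binding cells and at 88.1, 90.3 and 92.2 TPM in non-binding cells. The libraries of each group lay close together and the groups were far apart, with a log2 change of -0.58 (SE 0.12, 95% interval -0.86 to -0.30, adjusted p = 0.0193 by limma), or -0.94 relative to the median gene. It kept its call under both rescalings and lost it when any 1 of the 3 non-binding libraries was left out, with adjusted p-values up to 0.0704. Some exonic bases of UQCC2 overlap ITPR3 on the other strand, which stood at 57.6 TPM in binding against 39.0 TPM in non-binding cells.

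The promoters of UQCC2 and UQCRC1 are printed because they carry the same 2 motifs near the same places while the transcripts moved in opposite directions. NRF1 and YY1 are transcription factors with known roles in the expression of respiratory genes. Sequences run 5′ to 3′ on the gene's strand, from 250 bases before to 50 after the RefSeq start (GRCh38.p14), with matches to the NRF1 motif (GCGCA, any base, then GCGC, searched on both strands) and to the YY1 motif AAGATGGCG (both strands) in capitals. The UQCC2 window is chr6:33711651-33711950 on the minus strand and the UQCRC1 window chr3:48609597-48609896 on the minus strand.
UQCC2: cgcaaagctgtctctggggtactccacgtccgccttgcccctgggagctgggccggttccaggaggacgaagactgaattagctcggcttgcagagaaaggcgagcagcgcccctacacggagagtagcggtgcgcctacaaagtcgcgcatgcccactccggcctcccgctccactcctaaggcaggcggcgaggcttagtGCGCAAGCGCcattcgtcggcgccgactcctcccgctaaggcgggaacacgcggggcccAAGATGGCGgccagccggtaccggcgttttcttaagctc
UQCRC1: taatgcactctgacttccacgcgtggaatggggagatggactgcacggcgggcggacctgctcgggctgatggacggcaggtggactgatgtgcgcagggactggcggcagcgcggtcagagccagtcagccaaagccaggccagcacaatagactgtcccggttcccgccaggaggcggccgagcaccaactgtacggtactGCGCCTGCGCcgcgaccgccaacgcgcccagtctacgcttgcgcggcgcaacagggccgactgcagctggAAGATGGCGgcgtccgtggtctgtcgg
The NRF1 match starts at -48 in UQCC2 and -47 in UQCRC1, and the YY1 match at 12 and 24, where 1 is the first transcribed base. RefSeq promoters were matched for 53 of the 68 genes, and 17 of these (32.1%) held the NRF1 motif, against 6.28% of all 27305 promoters of this length. The motif was found in 11 of 32 promoters of higher genes, 4 of 17 of genes not called and in that of UQCC2, the 1 lower gene matched. An ETS motif, CCGGAAG on either strand, which shares no full match with the others, was found in 20 of 53 (37.7% against 10.7% of all promoters), and the YY1 motif in 5 of 53 (9.43% against 1.85%), those of SDHB, UQCC2, UQCRC1, COX10 and ATP5PF. A match is a description of the letters in the window and no measurement of binding.

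Cytochrome c oxidase had 13 of 22 tested genes higher and 0 lower by limma (0 lower also at an unadjusted p under 0.05). Over all tested genes 19.6% were higher and 7.12% lower. The 13 were 9 of 12 tested subunits and 4 of 10 genes listed as assembly factors. Without non-binding replicate 2 or 3 the count was 0, as for all the genes. COX6C, a small membrane subunit, stood at 55.4, 40.2 and 37.1 TPM in binding cells and at 22.4, 20.3 and 18.1 TPM in non-binding cells. The ratio of the means was 2.18 and the log2 change 1.07 (SE 0.19, adjusted p = 0.0145 by limma), with no overlap. COX7A2, the widely expressed isoform of subunit 7a, was at 142 ± 21.6 against 76.6 ± 15.2 TPM (log2 change 0.89, adjusted p = 0.0196), and COX7C at 203 ± 43.0 against 117 ± 6.89 TPM (0.77, adjusted p = 0.0206). COX5A, a subunit on the matrix side, stood at 284, 225 and 245 against 199, 215 and 231 TPM. Its groups overlapped, its log2 change was 0.22 (95% interval -0.09 to 0.53), or -0.14 relative to the median gene, and under the common median it was -0.10.

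Several subunits of complex IV come as alternative isoforms from separate genes, and the widely expressed form carried nearly all of the signal. COX4I1 (136 ± 32.4 against 77.9 ± 13.4 TPM), COX6A1 (398 ± 79.9 against 217 ± 38.7 TPM), COX6B1 (404 ± 85.9 against 241 ± 26.2 TPM) and COX8A (666 ± 211 against 410 ± 22.7 TPM) were all higher in binding cells. Their log2 changes were 0.78, 0.87, 0.73 and 0.66. The calls of COX4I1 and COX6B1 were lost in 4 and 5 of 13 alternatives, the common median among them. COX8A, the smallest subunit, had 1 binding library at 907 TPM against 572 and 517 in the other two, and its adjusted p was 0.0487, over the threshold with a pseudocount of 0.1 (0.0518) and in 7 of 13 alternatives in all. Of the partner genes COX4I2 and COX6A2, the lung and the heart and muscle form, were listed at 0 in all 6 libraries. The testis forms COX6B2 (at most 0.312 TPM) and COX8C (1.08 TPM in binding replicate 3 and listed at 0 elsewhere) were not tested.

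The muscle form COX7A1 was the member with the lowest estimate and did not pass. It stood at 0.493, 1.78 and 1.14 TPM in binding cells and at 1.59, 1.72 and 4.39 TPM in non-binding cells. The values overlap and 1 non-binding library is well above the rest, with a log2 change of -0.70 and a 95% interval from -1.62 to 0.22. COX7B2 was the exception among the minor forms. It is a homolog of COX7B known mainly from testis, and here it stood at 56.6, 41.3 and 47.8 TPM in binding cells and at 27.7, 21.4 and 23.0 TPM in non-binding cells (ratio 2.02, log2 change 0.98, adjusted p = 0.0147 by limma). COX7B itself had the lower level in TPM of the pair, at 27.3 ± 5.28 against 15.0 ± 4.79 (log2 change 0.85, adjusted p = 0.0404). The call of COX7B was lost under the common median and quantile normalization (adjusted p = 0.123 and 0.124 by limma), among other settings. That of COX7B2 was lost in 2 of 13 alternatives. Both rose, and COX7B2 made up 64.1% ± 2.68 of the TPM of the pair in binding and 62.2% ± 4.50 in non-binding libraries (exact two-sided permutation p = 0.4, where 0.1 is the smallest 3 against 3 can give).

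**Figure D3:**
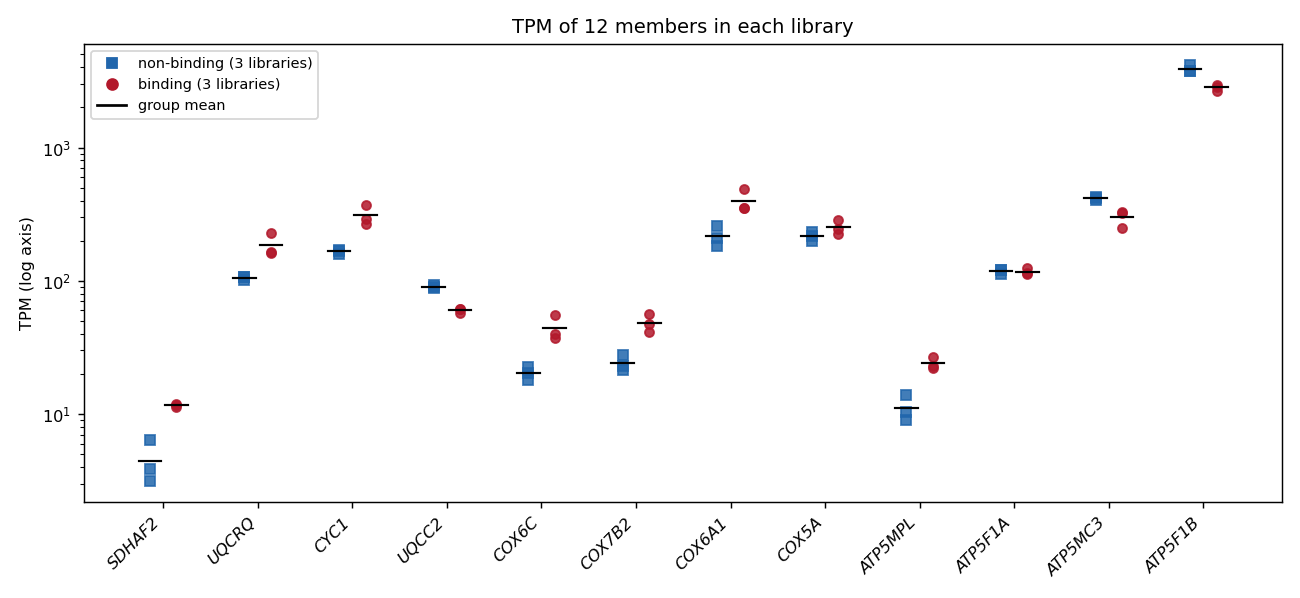
TPM (log axis) of 12 genes in each of the 6 libraries, squares for non-binding and circles for binding, with a bar at each group mean. SDHAF2, CYC1, COX6C, COX7B2 and ATP5MPL sit higher in every binding library, UQCC2, ATP5MC3 and ATP5F1B lower, and ATP5F1A overlaps at about 117 TPM in both groups.

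Of the 10 genes listed here as complex IV assembly factors, COX14, COX15, COX17 and COX18 were called. COX15, which makes heme A, was at 24.0 ± 6.70 against 12.8 ± 1.69 TPM (log2 change 0.83, adjusted p = 0.0315 by limma). COX17, the copper carrier of the intermembrane space, was at 23.4 ± 5.49 against 13.5 ± 0.782 TPM (0.73, adjusted p = 0.0325). COX18, which places part of the mitochondrially made COX2 protein across the membrane, was low but had a ratio of 2.63 (6.58 ± 2.66 against 2.51 ± 0.567 TPM, log2 change 1.07, adjusted p = 0.0377), and COX14 had a change of 0.79 (adjusted p = 0.04). COX14, COX15, COX17 and COX18 all lost the call under both rescalings, among other settings. COX10, which acts just before COX15 in heme A synthesis, did not pass: its libraries at 37.2, 29.9 and 23.2 against 26.7, 13.9 and 14.2 TPM overlapped (0.73, adjusted p = 0.0831). COX11, COX16, COX19, COX20 and COX7A2L did not pass either, with log2 changes from 0.54 to 0.80 and no overlap between the groups. COX20 shares exonic bases with HNRNPU on the other strand, which at 443 against 691 TPM was far above COX20 itself.

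In the ATP synthase 12 of 19 tested genes were higher and 2 lower, against 19.6% and 7.12% of all tested genes. Genes for neighbouring parts of the enzyme moved apart. In F1, where ATP is made, the central stalk subunits gamma (ATP5F1C, 158 ± 30.8 against 98.8 ± 8.81 TPM), delta (ATP5F1D, 59.8 ± 9.70 against 36.4 ± 1.46 TPM) and epsilon (ATP5F1E, 53.5 ± 9.38 against 29.5 ± 3.25 TPM) rose. Their log2 changes were 0.66, 0.69 and 0.83. The calls of ATP5F1C and ATP5F1D were lost in 6 and 4 of 13 alternatives, the common median among them. The subunits that form the catalytic ring did not rise. ATP5F1A, the alpha subunit, stood at 124, 113 and 113 TPM in binding cells and at 112, 120 and 121 TPM in non-binding cells, with a log2 change of -0.01 (95% interval -0.28 to 0.27). ATP5F1B, the catalytic beta subunit (chromosome 12 from 56638175 to 56646068 of hg38, minus strand), stood at 2669, 2948 and 2862 TPM in binding cells and at 3752, 4172 and 3726 TPM in non-binding cells.

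All binding libraries of ATP5F1B were thus below all non-binding ones, with a ratio of 0.728 and a log2 change of -0.46 (SE 0.12, 95% interval -0.73 to -0.19, adjusted p = 0.029 by limma), or -0.81 relative to the median gene. The call was kept under both rescalings and lost in 6 of 13 alternatives, with adjusted p-values up to 0.136. ATP5F1B was by far the most abundant of the 68 transcripts. Its TPM was 24.3 ± 2.46 times that of ATP5F1A in binding and 33.1 ± 2.12 times in non-binding libraries (exact two-sided permutation p = 0.1, the smallest possible), although the ring holds equal numbers of both proteins. Its level also set the total: the 68 genes together made up 9357 ± 1111 TPM in binding libraries against 8193 ± 55.7 TPM in the others, and without ATP5F1B 7950, 5980 and 5662 TPM against 4453, 4069 and 4405 TPM.

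In the membrane sector and stalk 8 of 12 tested genes rose and 1 fell. ATP5MPL, a small membrane protein of the synthase, stood at 27.0, 22.3 and 22.9 TPM in binding cells and at 13.8, 10.4 and 9.05 TPM in non-binding cells (ratio 2.17, log2 change 1.07, adjusted p = 0.0155 by limma). The dimer-stabilising subunits ATP5ME and ATP5MF had log2 changes of 0.95 and 0.84, and ATP5MD, which supports the assembly of synthase dimers, one of 0.82, of which 0.22 remained in the sum with its pseudogene. The stator genes ATP5PB, ATP5PD, ATP5PF and ATP5PO had changes from 0.71 to 0.81, all called. Each of these stator genes lost the call under the common median, and ATP5PD, ATP5PF and ATP5PO also after quantile normalization. ATP5MG did not pass (83.4 ± 15.5 against 60.1 ± 2.12 TPM, adjusted p = 0.0638), and ATP5MGL was listed at 0 in all libraries.

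The rotating ring of subunit c is the same mature protein made from 3 nuclear genes, ATP5MC1, ATP5MC2 and ATP5MC3, and none of these was called higher. ATP5MC3 (chromosome 2 from 175176258 to 175184607 of hg38, minus strand) stood at 247, 330 and 320 TPM in binding cells and at 416, 404 and 426 TPM in non-binding cells. The groups did not overlap (log2 change -0.48, SE 0.14, 95% interval -0.81 to -0.16, adjusted p = 0.0397 by limma, -0.84 relative to the median gene). Its call was lost in 7 of 13 alternatives, among them quantile normalization (adjusted p = 0.0825), with adjusted p-values up to 0.117. ATP5MC1 stood at 125, 109 and 110 against 83.4, 93.5 and 104 TPM, without overlap but not called (0.29, 95% interval -0.03 to 0.61, -0.066 relative to the median gene), and its sign turned under the common median (-0.03). ATP5MC2 overlapped at 142 ± 6.37 against 141 ± 15.6 TPM (0.01, 95% interval -0.29 to 0.31, -0.35 relative to the median gene; -0.31 under the common median and -0.03 after quantile normalization).

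The shares of subunit c TPM from ATP5MC3 and ATP5MC1 differed between the groups. They restate the TPM values above and are no separate evidence of a change. ATP5MC3 gave 47.4%, 57.1% and 56.3% of subunit c TPM in binding libraries and 65.6%, 61.5% and 64.4% in non-binding ones, and ATP5MC1 gave 20.7% ± 2.82 and 14.4% ± 1.31. Neither of these shares overlapped between groups, and for both the exact two-sided permutation p was 0.1, the smallest possible with 3 against 3. ATP5MC2 gave 25.6% ± 2.58 and 21.7% ± 2.30, with overlapping groups (p = 0.2 by the same permutation test). Summed over the 3 genes, subunit c was at 556 ± 29.6 TPM in binding libraries against 650 ± 14.8 TPM in the others, lower in every binding library. ATP5IF1, the inhibitor that blocks the synthase from consuming ATP when the gradient fails, went the other way at 74.3, 60.8 and 52.0 against 32.0, 31.1 and 37.3 TPM (log2 change 0.87, SE 0.17, adjusted p = 0.0172 by limma). The coupling factor ATP5S did not pass (9.69 ± 3.23 against 5.62 ± 0.96 TPM, adjusted p = 0.0831).

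**Figure D4:**
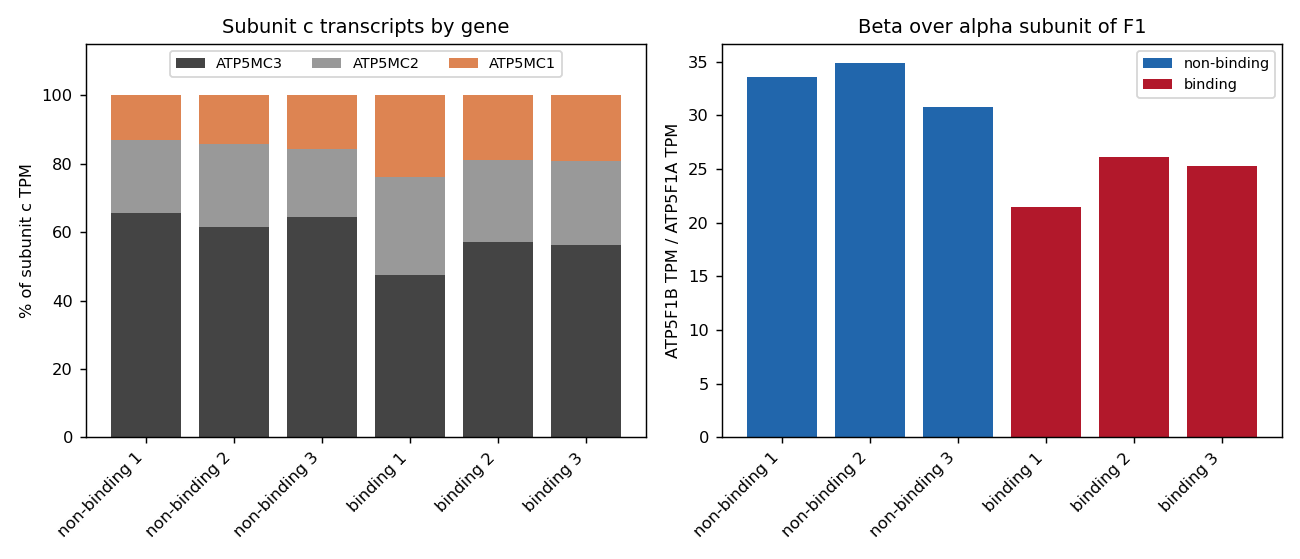
Left, the share of subunit c TPM (%) from ATP5MC1, ATP5MC2 and ATP5MC3 in each library; right, the ratio of ATP5F1B to ATP5F1A TPM, each bar 1 library. ATP5MC3 gives 61.5% or more in the non-binding libraries and at most 57.1% in the binding ones, and the ratio is at least 30.8 in the former and at most 26.1 in the latter.

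Many of these genes have processed pseudogenes, copies of the spliced transcript inserted elsewhere in the genome, and for a few of them the level was close to or above that of the gene. The name rule leaves out 109 pseudogenes of 31 members, processed ones except for those of SDHA, which are annotated as unprocessed. Of the 27 that were tested limma called 0 higher and 3 lower, COX5BP1, COX5BP6 and UQCRFS1P1 (0 and 5 at an unadjusted p under 0.05), and the median log2 change was -0.33. Of all 2211 tested pseudogenes 24.6% were lower and 2.35% higher, with a median of -0.55, so the share of lower ones was no larger here than among pseudogenes at large. The 109 pseudogenes together stood at 511 ± 73.9 TPM in binding libraries against 739 ± 90.0 TPM in the others. For the 30 with a mean of at least 1 TPM, the aligned part of the transcript was 80.8% to 98.9% identical to that of the parent (median 91.85%). That part was 40.2% of the transcript for SDHAP3, 78.1% for ATP5F1AP2 and at least 93.5% for the others. The following stretches of coding sequence, from GENCODE 29 transcripts on hg38, show how close the copies are: the parent is in lower case, and capitals in the copy mark bases that differ from it.
COX5B coding bases 1 to 120: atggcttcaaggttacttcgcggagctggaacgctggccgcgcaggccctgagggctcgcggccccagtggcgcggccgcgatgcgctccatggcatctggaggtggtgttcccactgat
COX5BP1: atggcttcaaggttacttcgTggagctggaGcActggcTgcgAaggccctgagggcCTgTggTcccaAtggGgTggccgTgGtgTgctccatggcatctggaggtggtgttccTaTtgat
UQCRFS1 coding bases 6 to 125: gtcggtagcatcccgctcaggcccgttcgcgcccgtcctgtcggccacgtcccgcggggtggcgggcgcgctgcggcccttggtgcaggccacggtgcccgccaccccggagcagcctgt
UQCRFS1P1: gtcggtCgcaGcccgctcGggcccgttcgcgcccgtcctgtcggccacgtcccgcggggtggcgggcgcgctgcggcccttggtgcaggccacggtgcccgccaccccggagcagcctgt
ATP5MD coding bases 1 to 120: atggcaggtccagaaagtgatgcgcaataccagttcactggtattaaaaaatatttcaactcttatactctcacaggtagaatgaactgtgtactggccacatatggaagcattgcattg
ATP5MDP1: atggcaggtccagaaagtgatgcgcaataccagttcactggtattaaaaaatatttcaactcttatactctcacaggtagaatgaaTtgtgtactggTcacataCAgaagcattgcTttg
Over these 120 bases COX5BP1 differs at 17, UQCRFS1P1 at 3 and ATP5MDP1 at 5. Over the whole copy none of the 50-base windows of COX5BP1 occurs unchanged in the parent transcript, but 61% of those of UQCRFS1P1 and 28.9% of those of ATP5MDP1 do, so that reads from such windows cannot tell gene and copy apart.

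COX5B, the zinc-binding subunit of complex IV, and its copy COX5BP1 (chromosome 4 from 81919995 to 81920387, hg38) had changes of opposite sign. The gene stood at 159, 108 and 96.2 TPM in binding cells and 86.5, 57.6 and 91.3 TPM in non-binding cells (log2 change 0.61, adjusted p = 0.0852, not called). The copy stood at 88.4, 72.8 and 76.1 against 114, 169 and 144 TPM and was lower (-0.83, SE 0.17, adjusted p = 0.0194 by limma). COX5B and its 6 pseudogenes together were at 201 ± 40.8 against 226 ± 16.2 TPM, so that the sum was not called and had the other sign (-0.18, adjusted p = 0.399).

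UQCRFS1 showed the same arrangement with a closer copy. The gene stood at 56.4, 40.6 and 40.6 against 24.6, 32.1 and 30.5 TPM and was called higher, whereas UQCRFS1P1 (chromosome 22 from 39875289 to 39876108, hg38) stood at 47.2, 40.7 and 72.2 against 85.8, 99.1 and 82.9 TPM and was called lower (-0.77, SE 0.21, adjusted p = 0.0362 by limma). Gene and pseudogenes together were at 99.2 ± 16.2 against 119 ± 10.8 TPM, with overlapping groups and a log2 change of -0.26 (adjusted p = 0.223). The copies held 53.2% ± 9.65 of that sum in binding and 75.5% ± 2.41 in non-binding libraries. How reads were assigned between the Rieske gene and its copies is unknown.

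ATP5MD kept its direction but not its call. The gene stood at 389, 291 and 269 against 203, 165 and 165 TPM, and ATP5MDP1 (chromosome X from 74173890 to 74174066, hg38) at 140, 151 and 221 against 226, 249 and 244 TPM (-0.51, adjusted p = 0.0646). Their sum was at 487 ± 43.6 against 417 ± 10.2 TPM, higher in every binding library, with a log2 change of 0.22 (adjusted p = 0.18). ATP5MC1 with its 7 pseudogenes was at 190 ± 15.1 against 207 ± 26.4 TPM (-0.12), and ATP5MC2 with its copies also turned sign (-0.02). Over all 63 genes, adding the pseudogenes left 35 higher and 3 lower, the calls lost being those of UQCRFS1 and ATP5MD. In 8 members the pseudogenes together reached 20% of the parent's level or more.

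**Figure D5:**
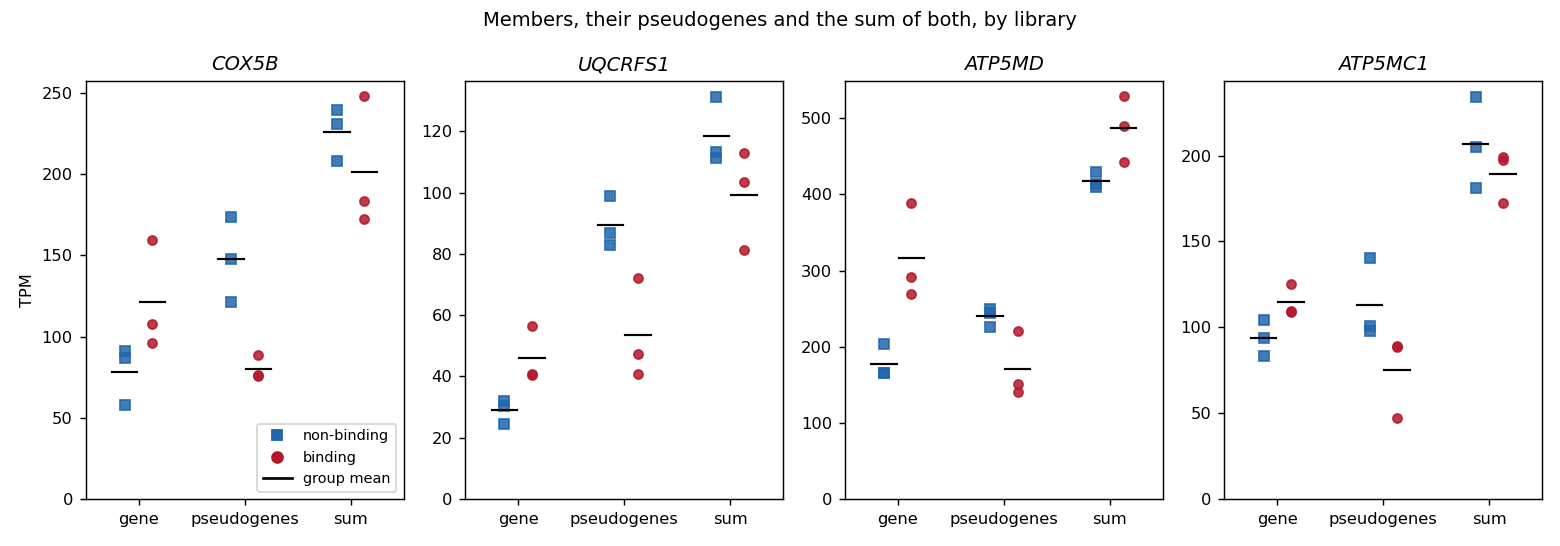
TPM of COX5B, UQCRFS1, ATP5MD and ATP5MC1, of the summed pseudogenes of each, and of gene and pseudogenes together, by library, with bars at group means. Binding libraries lie higher for the gene and lower for the pseudogenes; the sums overlap between the groups except for ATP5MD, at 487 against 417 TPM in mean.

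The mitochondrial genes for the same complexes had larger log2 changes than any of the nuclear ones. All 6 were higher, with a median log2 change of 1.71: MT-CYB of complex III by 1.39, MT-CO1, MT-CO2 and MT-CO3 of complex IV by 1.70, 1.94 and 2.01, and MT-ATP6 and MT-ATP8 of complex V by 1.72 and 1.62. MT-CO1 was at 11760 ± 777 against 3623 ± 228 TPM (adjusted p = 0.001 by limma). The mean TPM of the MT-CO genes over the median TPM of the nuclear COX subunits was 56.8, 79.5 and 90.7 in binding and 33.4, 45.4 and 30.5 in non-binding libraries, so that every binding library had the higher ratio.

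Other lists of nuclear genes for mitochondria also had many higher genes and few lower ones. For comparison, 19.6% of all tested genes and 23.4% of protein-coding ones were higher, and 7.12% and 4.5% lower. Of 37 nuclear subunits of complex I, 20 were higher and 1, NDUFS1, was lower (61.7 ± 2.59 against 85.6 ± 4.05 TPM, log2 change -0.46, adjusted p = 0.0317 by limma), with a median of 0.70. A list of assembly factors and partners of complexes III to V outside the name rule had 17 of 30 higher and 0 lower by limma (0 lower also unadjusted, median 0.69). The smallest p-values belonged to TTC19 for complex III (0.99, adjusted p = 0.0151) and SURF1 for complex IV (0.88, adjusted p = 0.0161). The small subunit of the mitochondrial ribosome had 13 of 28 higher and 0 lower by limma (0 lower also unadjusted, median 0.71). No test of a difference between these lists, or between complexes, was made.

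Among regulators of respiratory gene transcription 1 of 11 tested was higher, 2 were lower and the median log2 change was 0.20. The shares over all tested genes were 19.6% higher and 7.12% lower, with a median of 0.36. NRF1, nuclear respiratory factor 1, stood at 21.8, 26.4 and 29.7 TPM in binding cells and at 39.9, 40.2 and 42.6 TPM in non-binding cells, without overlap (-0.65, SE 0.16, adjusted p = 0.0269 by limma). GABPA, the DNA-binding part of nuclear respiratory factor 2, was at 24.0 ± 2.43 against 34.2 ± 1.87 TPM (-0.50, adjusted p = 0.0432). GABPA shares exonic bases with ATP5PF on the other strand, and ATP5PF rose. POLRMT, the mitochondrial RNA polymerase, was the 1 that rose, at 35.5 ± 5.76 against 20.5 ± 3.07 TPM (0.76, adjusted p = 0.0267). The coactivator gene PPARGC1A was at 0.685 ± 0.125 against 0.472 ± 0.155 TPM and was not tested.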

How the data were processed

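RNA from sorted MDA-MB-231 cells (3 FABP4-binding, 3 non-binding libraries) was depleted of ribosomal RNA, randomly primed and sequenced, as the labels' protocols state. The authors deposited TPM for 58051 genes. The build, per the submitters' processing notes, was hg38. The aligner, quantifier, annotation and strand setting, not given in the sources used here, decide how reads shared with a pseudogene or an overlapping gene were assigned. Depth cannot be had from TPM, so no counting interval was computed. Groups came from the labels and each column from its labelled name.

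The 15574 genes that reached 1 TPM in 3 or more libraries were tested on log2(TPM + 1) with limma 3.58.1 in R 4.3.3 (intensity trend, no covariate, Benjamini-Hochberg over all tested genes at 0.05). On that scale the log2 change of a gene with low TPM is understated. For ratios within a library the exact permutation test, two-sided, was used. Gene types, transcripts and positions came from GENCODE 29, which held 99% of the identifiers and all 68 genes and may not be the annotation the submitters used. Promoters came from RefSeq (GRCh38.p14). Sequence work used Biopython 1.88 and figures matplotlib 3.10.9. The scripts were tested on simulated data.

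The genes and lists were chosen with earlier results of these data known. Named genes followed a rule: all complex II genes, CYCS, the isoforms, for each other role the 3 smallest p-values, every lower gene and the largest p, the 6 mitochondrial genes and at most 2 per other list. It gave 46 of the genes. Values of COX5B, UQCRFS1, ATP5MD, UQCRC1 and UQCR10, of the pseudogenes and of PPARGC1A, and all short mentions beyond the rule, were chosen after values were seen. Alternatives were a pseudocount of 0.1, no filter, a filter of 5 TPM, a common median, quantile normalization, a replicate block, each library left out, and, added after seeing the data, each gene summed with its pseudogenes.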

Additional observations from a re-analysis of the deposited data

How the results depend on the processing

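The direction of the summary held under every setting run: 53 to 59 of the tested genes had a positive change, and their median lay 0.31 to 0.56 above that of all genes. The number of calls did not hold, among these genes or over the whole table. Over all tested genes the share called higher was 5.12% with no filter and 32.7% with a filter of 5 TPM. It was 6.18% with a common median, 7.69% after quantile normalization and 0.372% to 12.7% with 1 library left out. With no filter, which tests 26817 genes, 18 of the members were higher and 1 lower, with 1 in complex II, 4 in complex III and 5 in complex IV. With a filter of 5 TPM complex II had 4. With a common median 16 were higher (1, 4, 5 and 6 in complexes II, III, IV and V) and the median change was 0.41, and after quantile normalization 23 (1, 5 and 8 in complexes II, III and IV) with a median of 0.51. Leaving out 1 library at a time gave 0 to 28 higher and 0 to 3 lower genes, with 0 to 2 in complex II, 0 to 6 in complex III, 0 to 10 in complex IV and 0 to 11 in complex V, and a median of 0.56 to 0.84. The settings differ in the libraries used, the genes tested or the scaling, and the cause of these shifts was not tested.

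With the replicate block 41 were higher, where 20.4% of all tested genes were, and 3 lower, 5 of them in complex II. Whether equal replicate numbers mark a shared culture or sort is not stated in the labels. The correlations of same-numbered libraries, as deviations from their group means, were 0.03, -0.02 and 0.03. Those of differently numbered ones ran from -0.07 to 0.06. With 3 libraries per group, whose deviations sum to 0 in each gene, these correlations cannot decide whether samples were paired. The number alone defines this block. COX10, COX16, COX20, CYCS, SDHC, SDHD and SDHAF3 gained the call with it, and UQCC3, UQCRC2 and UQCRFS1 lost the call.

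Signs that turned belong to genes not called, apart from UQCRFS1. Under the common median ATP5MC1 had -0.027, ATP5MC2 -0.31 and COX5A -0.10, and after quantile normalization ATP5MC2 had -0.027. Summed with pseudogenes ATP5MC1 had -0.12, ATP5MC2 -0.018, COX5B -0.18 and UQCRFS1 -0.26. With 1 library left out ATP5MC2 ranged from -0.043 to 0.099, ATP5F1A from -0.052 to 0.016 and SDHAF4 from -0.22 to 0.072. Depth is unknown and sets no stated limit here.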
